A study of Mus musculus with 8 samples.

Results

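The Kruppel-like factors are a family of zinc finger transcription factors, and 10 of their genes (Klf2, Klf3, Klf4, Klf5, Klf6, Klf9, Klf10, Klf13, Klf15 and Klf16) are described here in mouse embryonic stem (mES) cells with and without Trim71. They were taken by gene symbol from a table of 13558 transcripts, and each of the 10 was measured above the table's floor in every library. The choice was made with earlier results of these data known, and 5 other Klf genes of the table are described further below. The table came from mRNA sequencing of 8 libraries, 4 labelled KO and 4 labelled WT. All cells were male C57BL/6 mES cells, which per the study's methods carried floxed Trim71 alleles (Trim71 fl/fl) and Rosa26-CreERT2, a tamoxifen-activated Cre recombinase expressed from a ubiquitous locus. KO cells (Trim-/- in the labels) had received 500 nM 4-hydroxytamoxifen (4-OHT) for 2 days, per the labels, and had then been kept in culture for 7 days or more, whereas WT cells kept the floxed alleles (Trimfl/fl). For WT the labels give no induction, and the study's methods name the solvent DMSO as control. By these sources KO and WT also differed in exposure to 4-OHT, which the design does not separate from the loss of Trim71. The study's methods give another dose and a shorter culture for its mES cells in general, and the labels of these libraries were followed. Both groups were grown in serum with LIF and enriched for the surface antigen SSEA-1 on magnetic columns, which depletes cells that differentiate spontaneously. The KO group held 3 libraries of mES clone E3 (days 2, 3 and 4) and 1 of clone 1 (day 5), and the WT group 2 of clone E3 (days 3 and 4) and 2 of clone 1 (days 1 and 5). Days 3, 4 and 5 thus had 1 KO and 1 WT library each, and the 2 libraries of such a day came from the same clone. The libraries are called by group and day in the following; what the day counts is not given in the sources used here. The labels do not say whether libraries of a group came from separate cultures, so p-values measure the spread between these libraries only.

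Klf proteins bind GC-rich DNA, mostly CACCC and GC boxes, through zinc fingers at their carboxyl end, and differ in the amino-terminal part that recruits activators or repressors. Klf2, Klf4 and Klf5 bind many of the same sites in mES cells and help to hold them in self-renewal; Klf4 acts downstream of LIF and Stat3, and Klf2 is induced through the Mek5-Erk5-Mef2 route. Klf3 is a repressor that works through the corepressor CtBP, and Klf9, Klf10, Klf13 and Klf16 are mainly repressors that work through Sin3A. Klf9 and Klf15 are induced by glucocorticoids, and Klf10 by TGF-beta. Trim71 itself is an RNA-binding protein and ubiquitin ligase of stem and progenitor cells.

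Several Klf genes are themselves targets of Klf proteins, so the sequences ahead of the start sites of Klf4 and Klf3, which stood higher in KO in all same-day pairs, and of Klf2, which stood lower, are shown. Each runs 5′ to 3′ over the 250 bases before the RefSeq start site (GRCm38.p6, the same assembly as mm10), and capitals mark GC boxes (GGGCGG, read as CCGCCC from the other strand) and CACCC boxes (read as GGGTG from the other strand), which can overlap. The windows lie at chr4:55532476-55532725 on the minus strand for Klf4, chr5:64803271-64803520 on the plus strand for Klf3 and chr8:72318812-72319061 on the plus strand for Klf2. The gene positions given below are those of GENCODE, which starts Klf3 at 64803388 and Klf2 at 72319033. The ends of these 2 windows, with some of their marked boxes, thus lie inside the genes as GENCODE places them.
Klf4: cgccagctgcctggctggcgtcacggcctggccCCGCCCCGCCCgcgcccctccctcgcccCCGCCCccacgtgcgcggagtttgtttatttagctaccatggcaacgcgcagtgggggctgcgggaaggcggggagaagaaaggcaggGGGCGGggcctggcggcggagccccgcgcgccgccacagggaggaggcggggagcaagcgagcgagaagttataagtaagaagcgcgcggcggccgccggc
Klf3: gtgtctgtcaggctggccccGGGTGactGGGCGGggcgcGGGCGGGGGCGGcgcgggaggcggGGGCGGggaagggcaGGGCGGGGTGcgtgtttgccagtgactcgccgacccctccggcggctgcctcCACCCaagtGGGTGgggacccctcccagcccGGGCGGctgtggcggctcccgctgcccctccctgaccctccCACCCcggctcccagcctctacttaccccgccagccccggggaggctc
Klf2: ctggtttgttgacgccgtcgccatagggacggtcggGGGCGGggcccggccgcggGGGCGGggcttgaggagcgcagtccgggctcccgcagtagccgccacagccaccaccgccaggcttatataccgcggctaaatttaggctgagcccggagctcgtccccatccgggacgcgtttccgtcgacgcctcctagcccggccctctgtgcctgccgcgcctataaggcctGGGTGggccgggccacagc
The Klf4 window held 4 GC boxes and 0 CACCC boxes, the Klf3 window 6 and 5, and the Klf2 window 2 and 1. A RefSeq window was at hand for 7 of the 10 members (Klf2, Klf3, Klf4, Klf6, Klf9, Klf13 and Klf15). Of these, 6 held a GC box, against 32.7% of 32851 windows of the same length over all RefSeq genes, and 5 held a CACCC box, against 52.0%. The GC content of the 7 windows was 59.6% to 78.4%, and the median of all windows was 52.4%, and the part of base composition in these counts was not tested.

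The deposited values are read counts per transcript that the authors normalized with DESeq2 and then corrected for clone; they are called normalized read counts here. Trim71 served as the check of the labels. It measured 500, 793, 733 and 247 normalized read counts in KO on days 2, 3, 4 and 5, and 2782, 2736, 1988 and 2584 in WT on days 1, 3, 4 and 5, so the groups did not overlap. Recombination removes exon 4 alone per the study's methods, so counts over the rest of the gene remain in KO. Before the clone correction Trim71 measured 223, 516, 456 and 524 in KO and 3060, 2459, 1711 and 2861 in WT. The groups did not overlap there either, but the order of the KO libraries differed, so it rests on the correction. The reads behind the values, recovered from the table as whole numbers, summed to between 6404091 (WT, day 3) and 24017769 (WT, day 4) per library, and the Klf members held between 52 and 10103 reads each. The sum of the markers of undifferentiated mES cells was high in all libraries (8 of 8 listed genes in the table, summed to between 60710 and 78648 normalized read counts in KO and between 55179 and 69855 in WT). Among these genes Fut4 was itself low, at 9.08 to 26.5 in KO and 9.68 to 27.4 in WT. Markers of other cell types were low but did not stand equal: the 6 primitive endoderm genes summed to 259 to 570 in KO and 68 to 422 in WT, the 4 trophoblast genes in the table (Elf5 was not in it) to 378 to 719 and 119 to 428, and the 4 neural genes to 712 to 983 and 850 to 1504. The low end of WT was the library of day 1 alone; without it the WT sums ran from 281 to 422 for primitive endoderm and from 295 to 428 for trophoblast. The 4 fibroblast genes in the table summed to 116 to 210 in KO and 92.7 to 197 in WT, and the 2 mesoderm genes to 34.5 to 42.6 and 32.1 to 51.9; Col3a1, Postn, Lum, Dcn, Mixl1 and Mesp1 were not in the table. Whether such cells took part in any difference below was not tested, and in bulk libraries fewer cells of a type and less RNA per cell cannot be told apart.

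Across the family, no member reached an adjusted p under 0.05 (smallest 0.446, limma with Benjamini-Hochberg adjustment over all transcripts), but neither did any other transcript in this fit, the deleted Trim71 included (adjusted p = 0.294), so the adjusted p does not show that the members stayed the same. Limma-voom on the recovered reads also called 0 transcripts, and with day as a block it called 2, Trim71 and Foxj1 (the latter named after its value was seen). At an unadjusted p under 0.05 in the same limma fit, which took clone as a covariate, 2 of 10 members passed, Klf16 and Klf5, both higher in KO. The share over all transcripts was 9.09% in either direction and 4.62% for transcripts higher in KO, and 10 genes are few to set beside these shares. No member also reached a fold change of 1.5, which 4.25% of all transcripts did together with that p. Fold changes ran from -0.34 (Klf2) to 0.53 (Klf4) on the log2 scale, with a median of 0.10 beside -0.00036 over all transcripts. When KO and WT libraries of the same day were compared (limma with day as a block, 6 libraries), 4 of 10 members had an unadjusted p under 0.05, namely Klf4, Klf5, Klf16 and Klf3, and all 4 were higher in KO. In that fit the share over all transcripts was 19.2% in either direction and 9.92% for those higher in KO, and the smallest adjusted p of a member was 0.199. Klf4 and Klf5 also passed the 1.5-fold criterion there, which 7.49% of all transcripts met, 3.13% of all with the KO libraries higher.

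**Figure D1:**
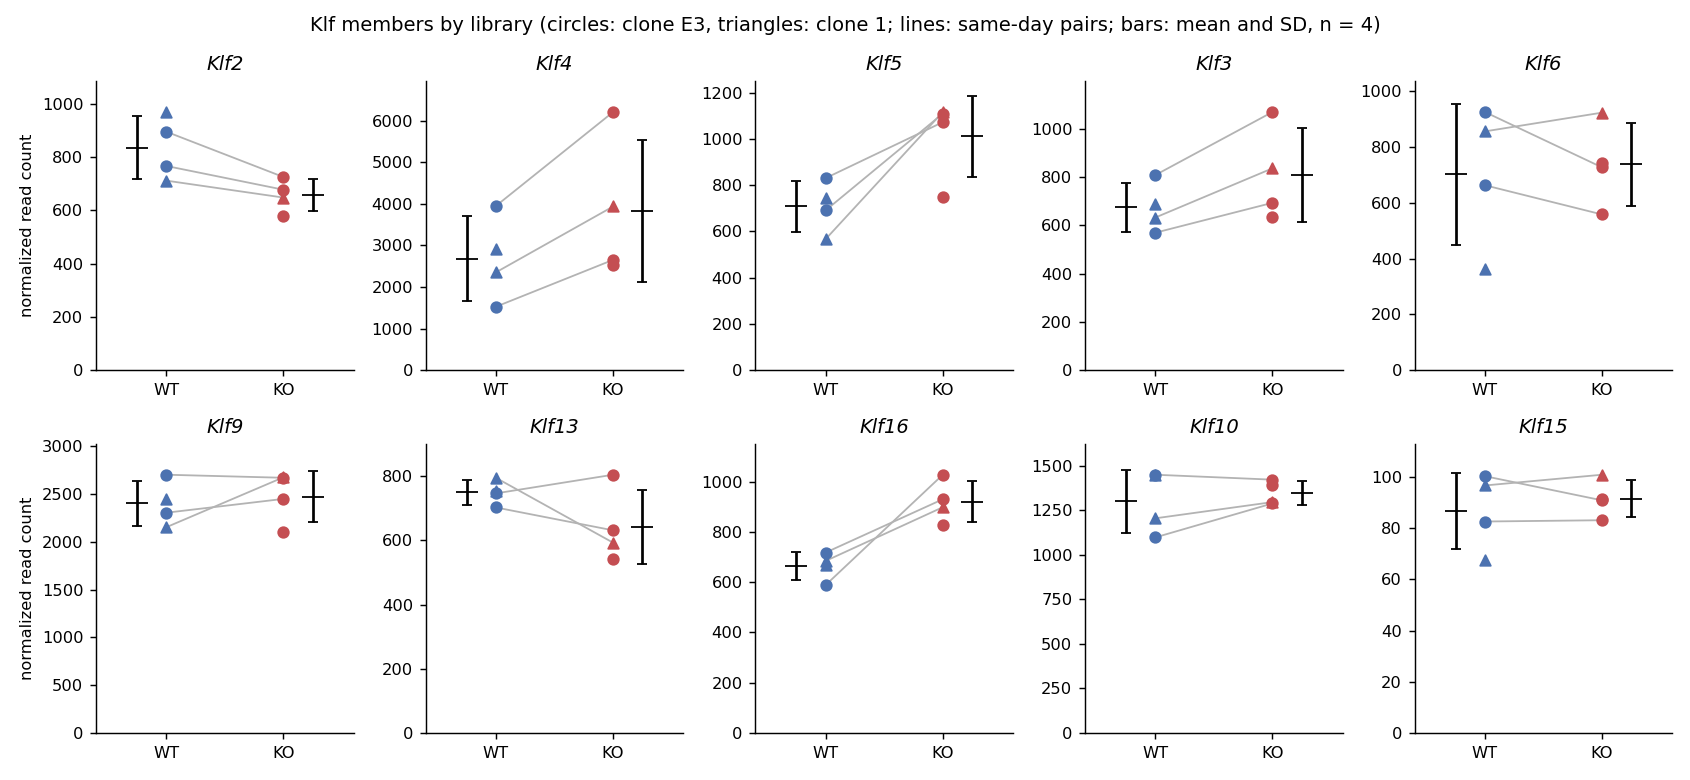
Normalized read counts (y axes, from 0) of the 10 Klf members in the 4 WT and 4 KO libraries, with circles for clone E3, triangles for clone 1, grey lines joining libraries of the same day and black bars for the mean and SD. The groups overlap for every member except Klf16, and the 3 lines of Klf4, Klf5, Klf3 and Klf16 all run upwards from WT to KO.

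Of the members tied to self-renewal, Klf4 had the widest spread between libraries. Klf4 (chr4:55527143-55532466, minus strand) measured 2534, 2654, 6208 and 3937 normalized read counts in KO on days 2, 3, 4 and 5. In WT it measured 2915, 1526, 3949 and 2353 on days 1, 3, 4 and 5. The groups overlapped broadly, and the day 4 library was the highest of both groups. The means were 3833 ± 1706 in KO and 2686 ± 1017 in WT (SD, n = 4 each), and the fitted log2 fold change of 0.53 ± 0.40 (SE) had a 95% confidence interval from -0.41 to 1.48 (limma, unadjusted p = 0.227, adjusted p = 0.698). Within days KO exceeded WT by 1.74-fold on day 3, 1.57-fold on day 4 and 1.67-fold on day 5 in the clone-corrected values. Before the clone correction these days held 3176, 6730 and 3415 in KO and 2048, 4471 and 1831 in WT. How close the 3 ratios lie to each other thus depends on the correction. The same-day fit gave a log2 fold change of 0.73 ± 0.095 with an interval from 0.47 to 0.99 (limma, unadjusted p = 0.00132, adjusted p = 0.199). With the clone correction undone it gave 0.71 (limma, unadjusted p = 0.00284, adjusted p = 0.181). Klf4 was the only member at least 1.5-fold higher in KO on all 3 days, which held for 1.00% of all transcripts. Between the days the WT libraries themselves differed by up to 2.59-fold in Klf4, more than KO from WT within any day. The KO library of day 2 and the WT library of day 1 have no partner and differed in clone. They had the reverse order, with 2534 in KO and 2915 in WT. Before the clone correction they held 3056 in KO and 2393 in WT, so this order rests on the correction.

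Klf5 was higher in 3 of 4 KO libraries than in every WT library. Klf5 (chr14:99298691-99315036, plus strand) measured 751, 1073, 1110 and 1117 in KO on days 2 to 5, and 747, 831, 691 and 567 in WT on days 1, 3, 4 and 5. Only the KO library of day 2 lay within the WT range. The log2 fold change was 0.50 ± 0.19, a fold of 1.42 with an interval from 1.03 to 1.94 (limma, unadjusted p = 0.0358, adjusted p = 0.521), and the exact two-sided permutation test over the 70 assignments of the libraries gave p = 0.0571. Within days, KO exceeded WT by 1.29-fold on day 3, 1.61-fold on day 4 and 1.97-fold on day 5, and the fit with the day block gave 0.68 ± 0.15 (limma, unadjusted p = 0.0103, adjusted p = 0.210). Without the pair of day 4 the unadjusted limma p of that fit was 0.0528. The unadjusted p rose above 0.05, to between 0.0685 and 0.203, when the KO library of day 3, 4 or 5 or the WT library of day 4 or 5 was left out; without the KO library of day 2 the log2 fold change was 0.63 (unadjusted p = 0.00662), past the 1.5-fold criterion, as it was without the WT library of day 3 (0.62).

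Klf2 was the one member lower in KO on all 3 shared days. Klf2 (chr8:72319033-72321656, plus strand) measured 579, 726, 678 and 648 in KO on days 2 to 5, and 970, 896, 767 and 712 in WT on days 1, 3, 4 and 5. In 3 of the 4 KO libraries it lay below every WT library, and the KO library of day 3 lay just inside the WT range. Before the clone correction it measured 816, 962, 914 and 412 in KO and 733, 1133, 1004 and 476 in WT. Only the KO library of day 5 then lay below every WT library. The near separation of the groups, and the permutation p given next, thus rest on the correction. The log2 fold change was -0.34 ± 0.15 with an interval from -0.69 to 0.01 (limma, unadjusted p = 0.0548, adjusted p = 0.556; exact permutation p = 0.0571). Within days the ratio of KO to WT was 0.810, 0.884 and 0.911, and the same-day fit gave -0.21 ± 0.10 (limma, unadjusted p = 0.0984). Over all transcripts, 25.5% were lower in KO on all 3 days and 24.6% were higher. Of the 10 members 1 was lower on all 3 days and 4 were higher. None of the 5 other Klf genes of the table was higher or lower on all 3 days. The counts thus depend on which Klf genes are taken, and 10 genes are few to set beside these shares. The estimates of Klf2 lay on the other side of 0 from those of Klf4 and Klf5. The intervals of Klf2 in both fits, and that of Klf4 over all libraries, included 0. Whether the genes differ from each other was not tested.

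**Figure D2:**
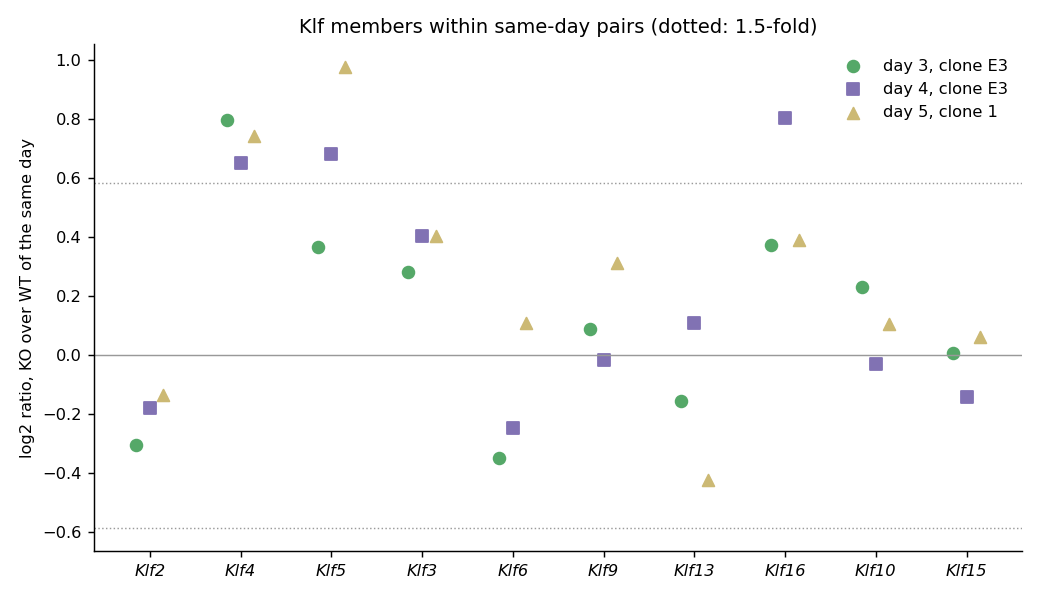
Log2 ratio of KO to WT (y axis) of each Klf member on days 3 (circles), 4 (squares) and 5 (triangles), with dotted lines at a 1.5-fold difference. In these clone-corrected values the 3 ratios of Klf4 lie between 0.65 and 0.80 and those of Klf5 between 0.37 and 0.98. Those of Klf2 all lie below 0.

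Among the repressors, Klf16 separated the groups. Klf16 (chr10:80567124-80577321, minus strand) measured 827, 930, 1028 and 898 in KO on days 2 to 5, and 666, 718, 588 and 684 in WT on days 1, 3, 4 and 5. Every KO library lay above every WT library, the only case among the 10 members; over all transcripts 10.1% had groups that did not overlap, so 1 of 10 is the share of the whole table. The log2 fold change was 0.47 ± 0.13, a fold of 1.39 with an interval from 1.13 to 1.71 (limma, unadjusted p = 0.00680, adjusted p = 0.446). The exact permutation p of 0.0286, from clone-corrected values and without a term for clone, is the smallest that 4 against 4 libraries can give. KO exceeded WT by 1.30-fold on day 3, 1.75-fold on day 4 and 1.31-fold on day 5, with 0.52 ± 0.13 in the same-day fit (limma, unadjusted p = 0.0159, adjusted p = 0.220). Klf16 was the one member whose unadjusted p stayed under 0.05 in each of 21 alternative fits, the highest being 0.0474 within clone E3.

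Klf3, the CtBP-dependent repressor, passed the unadjusted threshold within days and not over all libraries. Klf3 (chr5:64803388-64832901, plus strand) measured 635, 693, 1068 and 835 in KO on days 2 to 5 and 690, 569, 807 and 632 in WT on days 1, 3, 4 and 5. The groups overlapped, and the day 4 library was the highest of each group, as for Klf4. The log2 fold change was 0.25 ± 0.21 over all libraries (limma, unadjusted p = 0.271). Within days KO exceeded WT by 1.22-fold, 1.32-fold and 1.32-fold, which gave 0.36 ± 0.09 in the fit with day as a block (limma, unadjusted p = 0.0171, adjusted p = 0.220); leaving out the pair of day 3 or of day 5 took the unadjusted p to 0.0659 and 0.0904. Exons of Klf3 overlap those of Gm20033 on the opposite strand, and the library kit does not mark strand, so reads of the 2 genes cannot be told apart there.

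Klf13, another Sin3A-dependent repressor, measured 541, 631, 805 and 593 in KO on days 2 to 5, and 753, 703, 747 and 795 in WT on days 1, 3, 4 and 5. It lay below every WT library in 3 KO libraries and above them in the fourth, that of day 4. Its log2 fold change was -0.24 ± 0.15 (limma, unadjusted p = 0.164), and -0.34 without the KO library of day 4 (unadjusted p = 0.0193, adjusted p = 0.387). The same-day ratios of 0.898, 1.08 and 0.746 fell on both sides of 1.

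The hormone and TGF-beta responsive members showed no difference past the test. Klf9 ranged from 2099 to 2674 in KO and from 2151 to 2701 in WT, with a log2 fold change of 0.04 and an interval from -0.29 to 0.37. Klf10 ranged from 1289 to 1423 in KO and from 1098 to 1450 in WT, with a log2 fold change of 0.06 and an interval from -0.26 to 0.39. Klf15 was the scarcest member, at 83.2 to 101 in KO and 67.6 to 100.4 in WT, and its log2 fold change was 0.09 with an interval from -0.30 to 0.47. For these 3 genes the intervals leave out a 1.5-fold difference in either direction. Klf6, an immediate-early gene of many tissues, was far more variable. It measured 744, 727, 558 and 924 in KO on days 2 to 5 and 362, 926, 663 and 856 in WT on days 1, 3, 4 and 5. The WT libraries alone thus spanned 2.56-fold. Before the clone correction they measured 536, 752, 489 and 1030, and day 1 was not the lowest. With the correction undone the log2 fold change was 0.01 (limma, unadjusted p = 0.968). The fits that follow are of the deposited values. The log2 fold change was 0.12 with an interval from -0.67 to 0.90, which includes differences of 1.5-fold both ways (limma, unadjusted p = 0.737), and without the WT library of day 1 it was -0.13.

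**Figure D3:**
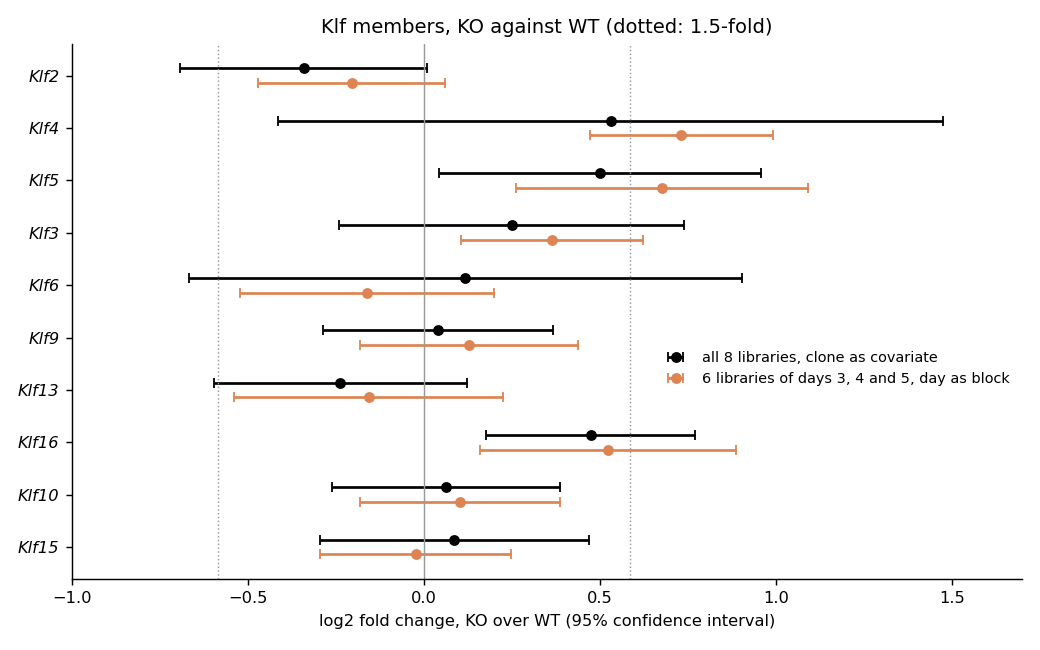
Fitted log2 fold change of KO over WT (x axis, points) with 95% confidence intervals (bars) for each Klf member, in black over all 8 libraries and in orange over the 6 libraries of days 3, 4 and 5 with day as a block; dotted lines mark 1.5-fold. The interval of Klf4 runs from -0.41 to 1.48 over all libraries and from 0.47 to 0.99 within days, while those of Klf16 run from 0.18 to 0.77 and from 0.16 to 0.89.

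Per kilobase of exon, Klf4 was the most abundant member in the mean of both groups, and the order of the 10 members was the same in WT and KO. In WT, Klf4 stood at 887 ± 336 normalized read counts per kb (SD, n = 4), ahead of Klf9 at 535 ± 52.1 and Klf2 at 453 ± 63.8. Klf10 followed at 342 ± 46.7, Klf16 at 248 ± 20.5, Klf5 at 211 ± 33.0 and Klf6 at 166 ± 59.7. Klf3 at 129 ± 19.4, Klf13 at 117 ± 5.92 and Klf15 at 36.6 ± 6.29 came last. The WT ranges did not overlap between Klf2 and Klf10, between Klf10 and Klf16, and between Klf13 and Klf15; all other neighbours in this order overlapped, Klf4 and Klf9 among them. Before the clone correction Klf2 ran from 258 to 613 per kb in WT, Klf10 from 297 to 389 and Klf16 from 204 to 314, so only Klf13 and Klf15 were then separate. In KO the mean of Klf4 was 1266 ± 563 per kb, that of Klf2 356 ± 33.2, that of Klf16 344 ± 31.1 and that of Klf5 302 ± 52.3, with Klf10 between Klf2 and Klf16 at 355 ± 17.6.

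**Figure D4:**
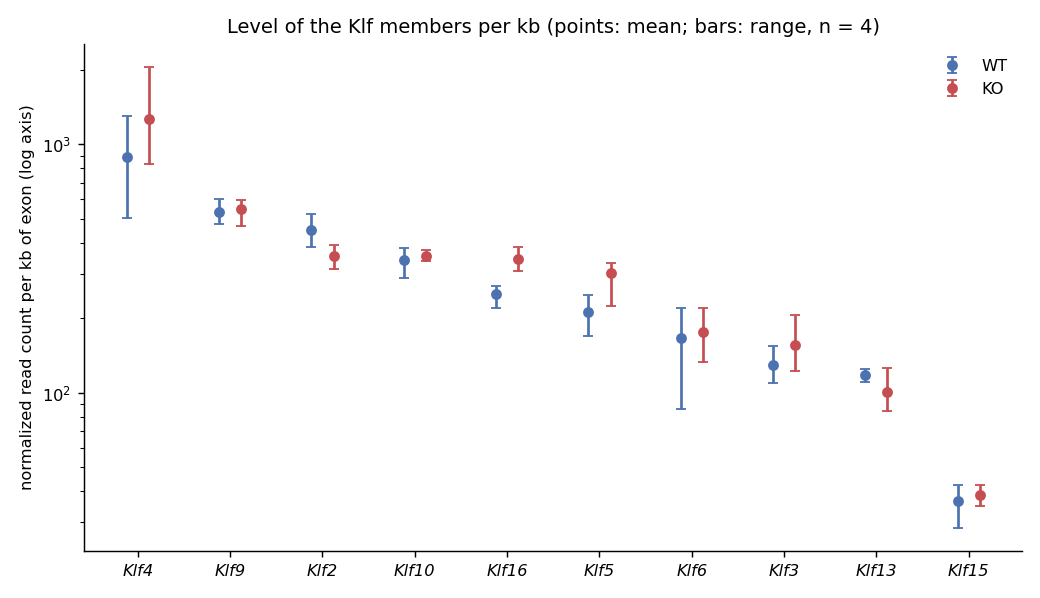
Normalized read counts per kilobase of exon (y axis, log scale) of the Klf members in order of their WT mean, with points for the mean of 4 libraries and bars for the range, WT in blue and KO in red. Klf4 stands highest at 887 in WT and 1266 in KO, and Klf15 lowest at 36.6 and 38.6.

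The size of the authors' clone correction could be read back from the table together with the whole reads. Klf2 was the one member whose clones did not overlap in the uncorrected values (1 of 10, against 8.0% of 13242 transcripts with recovered reads), with 816 to 1133 in the 5 libraries of clone E3 and 412 to 733 in the 3 of clone 1. The correction took 236 normalized read counts from each clone E3 library and added as many to each clone 1 library. The uncorrected values of the clones overlapped for all the other members. For Klf4 the shift was 522 and for Klf16 121, in the same direction, while Klf6 had 174 added to clone E3 and taken from clone 1; for the other 6 members it was between 0.936 and 31.0. Before the correction Klf16 measured 948 to 1148 in KO and 709 to 838 in WT of clone E3, and 777 in KO against 546 and 564 in WT of clone 1. Within each clone KO thus lay above WT, but the KO library of clone 1 lay below the WT library of day 3 of clone E3. The separation of all 8 libraries in Klf16, and with it the smallest possible permutation p, therefore rests on the clone correction.

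**Figure D5:**
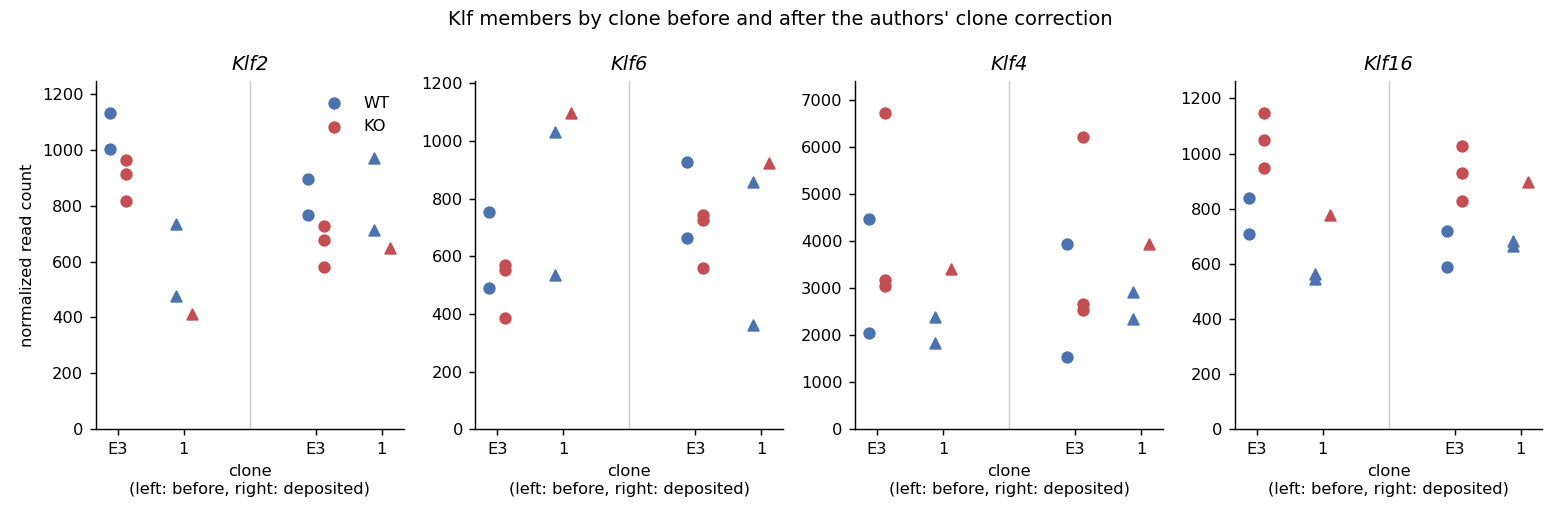
Normalized read counts (y axes, from 0) of Klf2, Klf6, Klf4 and Klf16 by clone, before the clone correction (left of the grey line) and as deposited (right), WT in blue and KO in red, circles for clone E3 and triangles for clone 1. Klf2 stands at 816 to 1133 in clone E3 and 412 to 733 in clone 1 before the correction, and Klf16 is higher in KO within both clones.

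Clone E3 alone gave 3 KO and 2 WT libraries. There 1 of 10 members, Klf16, had an unadjusted limma p under 0.05, against 2.77% of all transcripts. Its log2 fold change was 0.51 ± 0.20 (limma, unadjusted p = 0.0474, adjusted p = 1.00). In clone 1, where a single KO library stood against 2 WT libraries, the difference in log2 was 0.41 for Klf16, 0.78 for Klf5, 0.59 for Klf4 and -0.36 for Klf2, each on the same side as in clone E3 (0.51, 0.35, 0.50 and -0.33). Klf3 and Klf13 also kept their sign. Klf6 had opposite signs in the clones, with -0.22 in E3 and 0.73 in clone 1. This difference of 0.95 had an interval from -0.62 to 2.53. Klf9 (-0.059 in E3 and 0.22 in clone 1), Klf10 (0.11 and -0.028) and Klf15 (-0.042 and 0.32) had opposite signs as well. The limma test of the difference between clones called 0 of 10 members at an adjusted p under 0.05, against 0.0885% of all transcripts. Clone 1 gives this test a single KO library, so it cannot show that the clones respond alike.

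Of the 7 other Klf genes, 5 were in the table (Klf1 and Klf14 were not). Of these, 0 had an unadjusted p under 0.05 over all libraries (9.09% of all transcripts), and 0 in the same-day fit (19.2%). The smallest p values over all libraries belonged to Klf8 and Klf7. Klf8, a CtBP-dependent repressor, was at 324 ± 22.1 normalized read counts in KO and 367 ± 36.5 in WT (log2 fold change -0.18, limma, unadjusted p = 0.200). Klf7 was at 41.0 ± 11.4 and 47.7 ± 10.6 (-0.22, limma, unadjusted p = 0.445). Of the 9 genes of the related Sp factors, which bind the same GC boxes, 5 were in the table and none passed over all libraries. Sp4 was at 208 ± 59.6 in KO and 245 ± 20.9 in WT (-0.27, unadjusted p = 0.308), and Sp6 at 238 ± 94.5 and 184 ± 40.9 (0.33, unadjusted p = 0.320; 0.42 within days, unadjusted p = 0.0226).

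Among 15 cofactors and ubiquitin ligases of Klf proteins, 1 was lower at an unadjusted p under 0.05 and 0 were higher, beside the 9.09% of all transcripts. This was Btrc, the F-box protein beta-TrCP that directs ubiquitination of Klf4 among other proteins, at 759 ± 28.5 in KO and 1038 ± 98.4 in WT (log2 fold change -0.45 ± 0.12, limma, unadjusted p = 0.00583, adjusted p = 0.446). The median log2 fold change of the 15 genes was 0.01. Within days Btrc (-0.41, limma, unadjusted p = 0.0102) was joined by the corepressor Sin3a (-0.31, unadjusted p = 0.0398), named after its value was seen, and the median was -0.07. These 2 of 15 stand beside 19.2% of all transcripts at that threshold in the same-day fit.

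A further list held genes that feed signals to Klf4, Klf2 and Klf5 in mES cells. Of its 14 genes 13 were in the table (Mef2c was not); 3 were higher and 1 was lower in KO at an unadjusted p under 0.05, beside shares of all transcripts of 4.62% higher and 9.09% in either direction, and their median log2 fold change was -0.07. Stat3, the transcription factor of the LIF pathway, was at 1808 ± 110 in KO and 1468 ± 161 in WT (0.31 ± 0.13, limma, unadjusted p = 0.0458). Socs3, its target and feedback inhibitor, was at 2846 ± 243 and 1991 ± 280 (0.53 ± 0.15, limma, unadjusted p = 0.00881). Lifr, Il6st and Jak1 of the same list, named after their values were seen, were lower and did not pass (-0.27, -0.23 and -0.23, limma, unadjusted p = 0.338, 0.0744 and 0.193). Spry4, a feedback inhibitor of the FGF-Erk pathway, was at 1585 ± 284 in KO and 971 ± 289 in WT (0.71 ± 0.24, limma, unadjusted p = 0.0221). Mef2d, of the factors ahead of Klf2, was lower at 448 ± 66.4 against 580 ± 47.8 (-0.38 ± 0.15, limma, unadjusted p = 0.0407). Within days Stat3, Socs3 and Spry4 kept an unadjusted p under 0.05 and Mef2d did not (-0.23, limma, unadjusted p = 0.0665). In the same-day fit the shares of all transcripts were 9.92% higher in KO and 19.2% in either direction. Adjusted limma p values of Stat3, Socs3, Spry4 and Mef2d over all libraries were 0.452 to 0.543, so none of these passed the adjusted threshold.

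Of 13 inputs and companions of Klf9, Klf10 and Klf15, 1 was lower and 0 were higher at an unadjusted p under 0.05, again beside 9.09% of all transcripts, with a median log2 fold change of 0.09. It was Smad2, a transducer of TGF-beta and activin signals, at 1122 ± 101 in KO and 1380 ± 90.4 in WT (-0.30 ± 0.12, limma, unadjusted p = 0.0432, adjusted p = 0.541). The same-day fit gave 2 lower and 1 higher, beside 19.2% of all transcripts, and a median of the opposite sign, -0.07. Beside Smad2 these were Tgfbr1, a TGF-beta receptor (-0.47, unadjusted p = 0.0314), and Smad7, an inhibitor of the pathway (0.43, unadjusted p = 0.00868), both named after their values were seen. Of 12 mES cell genes that Klf2, Klf4 and Klf5 bind together or that act beside them, 1 was lower and 0 were higher, close to the 9.09% of all transcripts, with a median of -0.13. Tcl1, a cofactor of the kinase Akt that is abundant in naive mES cells, was at 337 ± 61.1 in KO and 591 ± 138 in WT (-0.81 ± 0.22, limma, unadjusted p = 0.00773, adjusted p = 0.452). Within days 2 were lower, both past the 1.5-fold criterion: Tcl1 at -0.73 (limma, unadjusted p = 0.00146) and Fbxo15, an F-box protein of mES cells named after its value was seen, at -0.95 (unadjusted p = 0.00410). Over all transcripts the same-day fit had 19.2% at an unadjusted p under 0.05 and 7.49% past that criterion.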

How the data were processed

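Per the study's methods and the submitters' processing notes, the authors called bases with CASAVA 1.8, aligned paired reads to mm10 with TopHat2 and Bowtie2 2.2.1, and counted reads per RefSeq transcript in Partek Genomics Suite 6.6. The deposited values are a normalized signal: the authors divided read counts by DESeq2 size factors, corrected additively for clone, set values under 1 to 1 and dropped transcripts whose higher group mean was low. From these values log2(value + 1) was computed and tested with limma 3.58.1 (R 4.3.3) over all 13558 transcripts. The fit took genotype and clone, or genotype and day for days 3, 4 and 5. Single genes were also tested by exact two-sided permutation of the same values, without a term for clone. A fold change on this scale slightly understates that of low transcripts.

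Whole reads and the clone shift were recovered for 13242 transcripts (97.7%); 208 with a value at the floor and 108 with several solutions were left out of fits on them. A shared day marks a KO and a WT library of 1 clone: deviations from group means correlated at 0.56, 0.65 and 0.50 on days 3, 4 and 5 before the clone correction, and at 0.42, 0.54 and -0.23 as deposited (medians of 13 pairs of different days: -0.19 and 0.05). Exon lengths came from GENCODE annotation of GRCm38, and promoter sequence from RefSeq. The members, gene lists and named genes (Trim71, the 10 members, and of each list up to 4 with an unadjusted p under 0.05, or else the 2 smallest) were chosen with earlier results of these data known. On simulated data the recovery of reads was tested from size factors set close to the true ones, and so was the limma fit with clone. The step that finds the size factors and the other fits were not tested in this way.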

Additional observations from a re-analysis of the deposited data

Results flagged for a closer look

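Klf5 in the KO library of day 2 stood apart from the other KO libraries, with 751 normalized read counts against 1073 to 1117 in the other 3. Its gap to the nearest of them was 0.880 of the range of the group, above the 95% critical value of Dixon's test for 4 values. The value was 750 before the clone correction and rested on 770 reads. It was the only such value among 22 groups of 4 checked (the 10 Klf members and Trim71 in KO and in WT), where chance gives about 1 in 20. Without this library the log2 fold change of Klf5 was 0.63 in place of 0.50.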

How the results depend on the processing

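Klf16 kept its direction and an unadjusted p under 0.05 in all 21 alternatives (0.39 to 0.54 on the log2 scale), and Klf4, Klf5, Klf2, Klf3 and Klf13 kept their direction. With the replicate block by day, 4 members in place of 2 had an unadjusted p under 0.05, 2 in place of 0 passed the 1.5-fold criterion, and 1015 transcripts in place of 576 did; voom on recovered reads with that block gave 4, 2 and 1044, with a smallest adjusted p of 0.0747 (Klf4) among the members. The 6 libraries without the block gave 1 member past the criterion (Klf5). Clone E3 alone gave 1 member with an unadjusted p under 0.05 and 278 transcripts past the criterion; a mean of at least 50 gave 315 and a linear model on untransformed values 274. Klf6 reversed to -0.16 and Klf15 to -0.024 in the libraries of days 3 to 5 with or without the replicate block, to -0.22 and -0.042 with voom and the block, and to -0.22 and -0.042 in clone E3, where Klf9 was -0.059; Klf15 was 0.035 within pairs without day 4. None of these 3 passed the test in any fit, and the causes were not tested.

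Leaving out 1 library at a time gave 1 to 2 members with an unadjusted p under 0.05, 0 to 1 past the criterion and 260 to 835 transcripts past it, 260 being without the KO library of day 5, which leaves clone 1 with no KO library. The count of members fell to 1 without the KO library of day 3 or 5 or the WT library of day 4, and Klf5 passed the criterion without the KO library of day 2 or the WT library of day 3. Over these fits Klf6 ran from -0.22 to 0.35, Klf9 from -0.059 to 0.13, Klf15 from -0.042 to 0.20 and Klf10 from -0.059 to 0.15. Klf4 ran from 0.18 (without the WT library of day 3) to 0.90 (without that of day 4). Klf2 had an unadjusted p under 0.05 in 5 of the 21 alternatives, one of them without the WT library of day 5 (0.0353). The interaction with clone called 0 members in each of 7 fits and could not be made without the KO library of day 5. Upper quartile scaling gave a median of 0.014 over all transcripts and changed no call of a member. The depth of 6404091 to 24017769 reads gave each member at least 52 reads, and 4 libraries a group limit the precision.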

Other observations

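The libraries of a group did not take turns evenly across the family. The KO library of day 2 held the lowest KO value in 7 of the 10 members and the highest in 0. The libraries of day 4 held the highest value of their group in 5 of 10 members in KO and in 5 of 10 in WT; Klf4, Klf3 and Klf10 were highest on day 4 in both groups. These counts share the normalization of each library and carry no test.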
